A study of Mus musculus with 49 samples.

Results

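The 43 genes described here are very long genes of neurons, picked by name for their long spans and found by symbol among the 52636 genes of the count table. They are Opcml, Ntm, Lsamp, Cadm2, Mdga2, Cntn4 and Cntn5 among the immunoglobulin-domain adhesion proteins; Nrxn3, Cntnap2, Nlgn1 and Lrrc4c among the organisers of synapses; Ptprd, Ptprt and Ptprn2 among the receptor-type tyrosine phosphatases; and Cdh13, Cdh18, Pcdh9, Ctnna2, Ctnna3 and Ctnnd2 among the cadherins and catenins. The scaffolds and adaptors were Dlg2, Magi2, Anks1b, Pard3b and Dab1, the ligands and receptors were Nrg3, Erbb4, Dcc and Lrp1b, and the CUB and sushi domain proteins were Csmd1 and Csmd3. Dpp6, Dpp10 and Fgf14 are partners of ion channels, Rbfox1, Auts2 and Sox5 regulate RNA or transcription, and Macrod2, Fhit, Wwox, Immp2l, Galntl6 and Agbl4 form a mixed group of enzymes and other proteins. Their spans on GRCm38 ran from 699 kb (Fgf14, chr14:123977907-124677127, minus strand) to 2271 kb (Ptprd, chr4:75941238-78211961, minus strand), with a median of 1104 kb against 17.4 kb for the 21896 protein-coding genes of the table. At least 1000 kb was spanned by 29 of the 43, and 39 were among the 100 longest protein-coding genes. Annotated exons covered between 0.0925% (Fhit) and 2.42% (Mdga2) of each span, with a median of 0.834% against 20.5% over protein-coding genes.

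Genes of this length consist almost wholly of introns, and an RNA polymerase needs many hours to cross them, so that at any moment much of their RNA is a growing, unspliced transcript in the nucleus. Many of them encode proteins that hold synapses together, guide axons or anchor receptors, and brain tissue is known for expressing long genes. Ribosomes carry spliced mRNA, from which the introns have been removed.

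The study isolated RNA by 3 methods from the mouse nucleus accumbens (NAc), targeting its GABAergic projection neurons, the medium spiny neurons (MSNs), which are divided by whether they carry the Drd1 (D1) or the Drd2 (D2) dopamine receptor. Whole cell-FACS sorted cells whose cytoplasm was marked by a fluorophore driven by the Drd1 or Drd2 promoter, from fresh tissue digested with papain (8 D1 and 6 D2 libraries, male). Nuclear-FACS sorted nuclei from frozen tissue of mice that combined Drd1-cre or Drd2-cre with a Thy1-driven, Cre-dependent EGFP-F label (6 D1 and 5 D2 libraries, male), and RiboTag precipitated the HA-tagged ribosomal subunit Rpl22 from fresh tissue of mice with the same Cre drivers (6 D1 and 6 D2 libraries labelled male, 5 D1 and 5 D2 labelled female). All mice were on a C57BL/6J background, each library came from a different mouse, no treatment was named and ages were not given in the sources used here. The marking rests on the 2 receptor promoters, and Drd2-driven Cre is also active in cholinergic interneurons. In bulk libraries such as these, fewer cells of a type and less RNA per cell cannot be told apart, and the method cannot be told apart from the mouse line, the tissue state and the dissociation used with it.

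Counts summed to between 3701255 and 68777008 per library, and nuclear libraries covered that whole range. Of the RiboTag libraries labelled male, 4 of 6 D1 and 2 of 6 D2 held more Xist than Y-linked counts, as did 10 of 10 labelled female and 0 of the whole cell and nuclear libraries, so the labelled sex of 6 RiboTag libraries went against these genes and the RiboTag results below are given with and without them where a value was computed both ways. The 10 most counted genes, among them the rRNA gene CT010467.1, Gm42418 and AY036118, took 84.8 to 88.0% of all counts in RiboTag libraries, 19.4 to 66.1% in nuclear D1, 4.17 to 12.9% in nuclear D2 and 0.429 to 51.0% in whole cell libraries. Drd1 was higher in D1 and Drd2 in D2 libraries of every method, but the separation was smallest for Drd1 in nuclei (median 14.4 CPM, the count scaled to library total, in D1 and 6.75 CPM in D2). Nuclear lanes held libraries of both cell types, whereas whole cell D1 libraries ran on lanes 1 and 2 and whole cell D2 libraries on lanes 5, 6 and 8, so lane and cell type cannot be told apart in whole cell data.

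The first question was how much of each library these genes made up. Whole cell libraries gave 3.85% ± 0.590 of their counts to the 43 genes in D1 (SD, n = 8) and 3.79% ± 1.30 in D2 (n = 6), nuclear libraries 3.68% ± 2.02 in D1 (n = 6) and 4.39% ± 0.393 in D2 (n = 5), and RiboTag libraries 0.129% ± 0.0234 in D1 and 0.135% ± 0.00915 in D2 labelled male (n = 6 each) and 0.170% ± 0.0377 in D1 and 0.145% ± 0.0136 in D2 labelled female (n = 5 each). These shares depend on the 10 most counted genes. With those left out, the 43 genes held 3.94% ± 0.623 of whole cell D1 counts, 4.51% ± 0.952 of whole cell D2, 6.13% ± 1.43 of nuclear D1 and 4.84% ± 0.545 of nuclear D2 counts, against 0.996% ± 0.142 and 1.06% ± 0.0639 in RiboTag D1 and D2 labelled male and 1.17% ± 0.208 and 1.09% ± 0.0768 in those labelled female. On this scale the highest RiboTag library, at 1.40%, lay below the lowest whole cell library, at 3.23%, and the nuclear D1 range of 4.35 to 8.33% overlapped the nuclear D2 range of 3.96 to 5.35%. Without the 6 RiboTag libraries, the remaining 2 D1 libraries labelled male held 0.890 and 0.920%, and the 4 D2 libraries held 1.00 to 1.17%, without overlap.

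**Figure D1:**
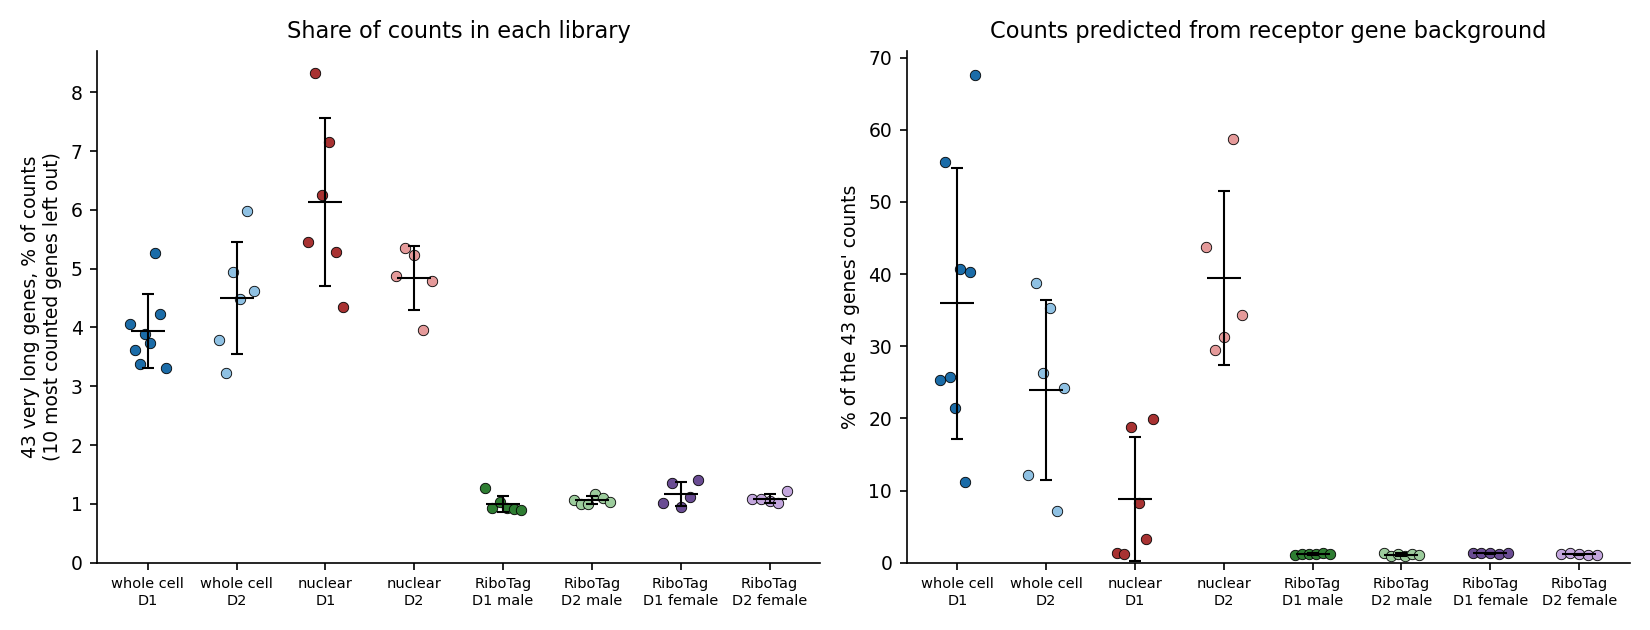
Left, counts of the 43 genes as a percent of each library's counts outside the 10 most counted genes. Right, the percent of the 43 genes' counts that the count density over olfactory and vomeronasal receptor genes predicts. Each point is 1 library and black bars are the mean ± SD. RiboTag libraries lie between 0.890 and 1.40% on the left, below every whole cell and nuclear library, and nuclear D2 libraries lie between 29.5 and 58.6% on the right, above every nuclear D1 library.

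Levels of single genes are given as FPM, which is CPM with the library totals scaled by TMM (trimmed mean of M-values), or per kilobase of gene span (FPKM) where genes are compared. TMM was applied within each method for these levels and for D2 against D1, and over all male-labelled libraries together for comparisons between methods, so the FPM of 1 gene differ between these scales. By the mean over all 14 whole cell libraries, the highest levels per kilobase belonged to Nrxn3, a presynaptic neurexin (chr12:88722876-90334935, plus strand), Fgf14, an intracellular partner of sodium channels, and Nlgn1, a postsynaptic ligand of neurexins (chr3:25426215-26332460, minus strand). Nrxn3 reached 1.31 ± 0.512 FPKM in D1 (lowest 995, median 2059.7, highest 3736 FPM) and 2.20 ± 1.24 in D2 (1795, 3092 and 7403 FPM). Fgf14 reached 1.24 ± 0.656 FPKM in D1 (336, 799 and 1852 FPM) and 1.98 ± 1.14 in D2 (629.8, 1193 and 2862 FPM), and Nlgn1 1.29 ± 0.611 in D1 (494, 1118 and 2338 FPM) and 1.44 ± 0.521 in D2 (708, 1206 and 2076 FPM). D1 and D2 overlapped for all 3 genes. In whole cell D2 alone, Dlg2 (1.52 FPKM) stood above Nlgn1. By the same mean the lowest levels belonged to Fhit, which encodes a dinucleotide hydrolase (chr14:9550092-11162035, minus strand), Agbl4, a cytosolic carboxypeptidase (chr4:110397661-111664324, plus strand), and Pard3b, a cell polarity protein (chr1:61638824-62642284, plus strand). Fhit stood at 0.331 ± 0.0853 FPKM in D1 (379.7, 514 and 691 FPM) and 0.307 ± 0.0863 in D2 (318, 545 and 647 FPM), Agbl4 at 0.320 ± 0.0616 in D1 (295, 391 and 521 FPM) and 0.302 ± 0.0836 in D2 (199, 423 and 476 FPM), and Pard3b at 0.289 ± 0.0950 in D1 (185, 281 and 398 FPM) and 0.264 ± 0.104 in D2 (109, 294 and 373 FPM). In whole cell D2 alone, Erbb4 (0.262 FPKM) stood lowest, just below Pard3b. Neighbours in the order of the 43 genes differed by less than 1 SD in 42 of 42 steps in whole cell D1, whole cell D2 and nuclear D2, 41 in nuclear D1, 38 in RiboTag D1 and 35 in RiboTag D2 labelled male, so places next to each other are mostly not separated.

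The order itself shifted with the method. On the scale shared by the male groups, Ptprn2, a phosphatase-like protein of dense-core vesicles, and Dpp6, which associates with A-type potassium channels, took places 1 and 3 in RiboTag D1 and 2 and 1 in RiboTag D2 but places 19 and 17 in nuclear D1. Fgf14 moved the other way, from place 1 in nuclear D1 and nuclear D2 to place 14 in RiboTag D1 and 13 in RiboTag D2. Spearman's rho of the 43 levels was 0.987 between RiboTag D1 and D2, 0.913 between whole cell D1 and D2, 0.901 between nuclear D1 and D2, and 0.723 at its lowest, between nuclear D2 and RiboTag D1. Without the 6 RiboTag libraries these 2 extremes were 0.979 and 0.707, and Ptprn2, Dpp6 and Fgf14 took places 1, 2 and 15 in RiboTag D1. These are descriptions across genes, which share libraries and spans.

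**Figure D2:**
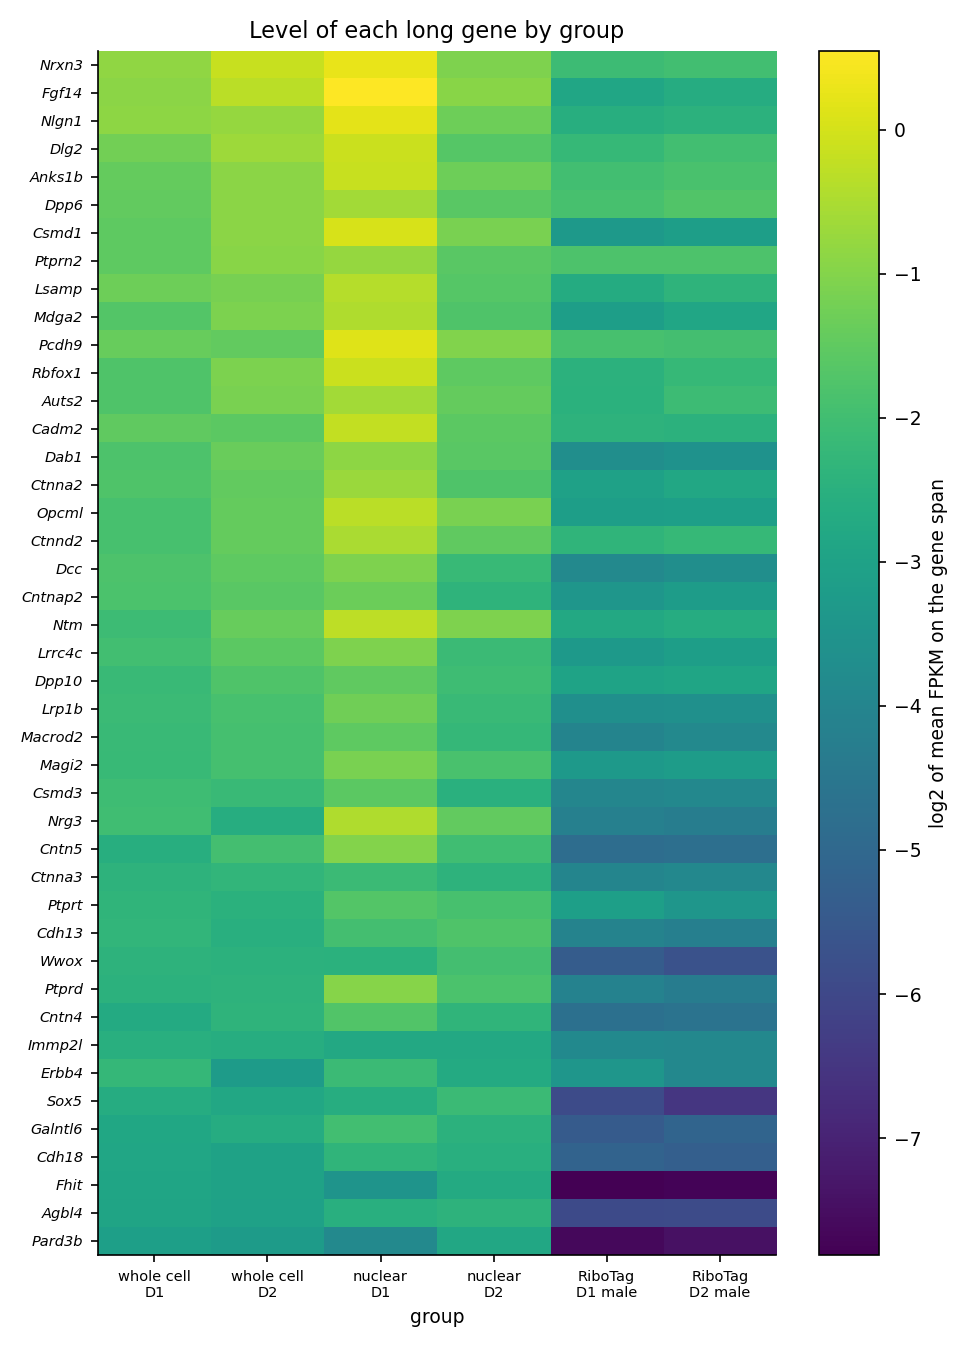
Mean level of each of the 43 genes (rows, ordered by the mean over whole cell libraries) in the 6 groups of libraries labelled male (columns), as log2 of FPKM on the gene span, in 1 fit scaled by TMM. Fhit and Pard3b are darkest in the RiboTag columns, at 0.00445 and 0.00503 FPKM in D1, and Fgf14 is brightest in nuclear D1, at 1.46 FPKM.

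The next comparison asked how the ribosome-bound and nuclear fractions differ from whole cells. A gene was called when edgeR's quasi-likelihood test gave a Benjamini-Hochberg adjusted p of at most 0.05 over all genes tested and the log2 fold change exceeded 0.38 in size. In RiboTag against whole cell D1 libraries 0 of the 43 genes were higher and 40 lower. Of all 30375 genes 80.4% were called, 6352 higher and 18060 lower. In D2, 0 of the 43 were higher and 42 lower, beside 81% of all genes (6557 higher and 18049 lower). The exceptions were Pcdh9 in both cell types, and Dpp6 and Ptprn2 in D1. The members' median log2 fold change was -1.51 in D1 and -1.68 in D2, against -1.92 and -1.93 over all genes tested. That set held 30375 genes, whereas 10724 passed the filter in male-labelled RiboTag libraries alone. The members' medians were more negative than those of protein-coding genes from 10 to 100 kb, -0.67 in D1 and -0.69 in D2. Genes under 10 kb had -1.12 and -1.10, those from 100 to 500 kb -1.10 and -1.16. Other coding genes of 500 kb and over had -1.58 and -1.72. With total counts as the scale the medians were -5.11 for the members and -5.50 for all genes in D1, and without the 6 RiboTag libraries that went against their label 30 members were lower in D1 and 35 in D2, still with 0 higher. The shares of all genes called without these 6 libraries are not given here.

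As counted, the largest differences between RiboTag and whole cell libraries belonged to 3 genes at low levels. With the counts of overlapping coding genes taken off, as described below, Ctnna3 (-4.35) and Immp2l (-3.97) in D1 went beyond the Sox5 value given here. Fhit had 173, 209.7 and 263 FPM (lowest, median, highest) in whole cell D1 and 5.08, 6.96 and 9.50 in RiboTag D1, without overlap, a log2 fold change of -4.92 ± 0.265 (SE; adjusted p = 3.23e-17) and of -4.71 ± 0.267 in D2 (adjusted p = 1.59e-16), both by edgeR's quasi-likelihood test. Pard3b fell from 84.3, 115 and 154 FPM to 2.92, 4.72 and 8.01, a log2 fold change of -4.55 ± 0.379 in D1 and -4.22 ± 0.38 in D2. Sox5, a transcription factor of the SoxD group (chr6:143828425-144781977, minus strand), fell from 88.6, 151 and 209 FPM to 11.2, 16.6 and 19.6, a log2 fold change of -3.25 ± 0.240 in D1 and -3.68 ± 0.253 in D2. Without the 6 RiboTag libraries the D1 and D2 values were -4.90 and -4.38 for Fhit, -4.84 and -3.89 for Pard3b and -2.90 and -3.30 for Sox5, all still called. In whole cell D1 the count density over olfactory and vomeronasal receptor genes, used below as a measure of background, predicted 62.1% of the Fhit count and 72.0% of the Pard3b count.

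The smallest called differences were -0.46 ± 0.196 for Ctnnd2, a delta-catenin of the postsynapse (chr15:30172593-31029341, plus strand), -0.55 ± 0.241 for Anks1b, a postsynaptic scaffold protein (chr10:89873509-90973300, plus strand), and -0.66 ± 0.310 for the splicing regulator Rbfox1 (chr16:5885355-7411526, plus strand) in D1. Ctnnd2 had 164, 219 and 381 FPM in whole cell and 149, 164 and 204 in RiboTag D1, and the groups overlapped for all 3 genes. None of these 3 calls held without the 6 RiboTag libraries (adjusted p = 0.597, 0.319 and 0.393 by edgeR). In D2, the smallest were -0.67 ± 0.171 for the neuregulin receptor Erbb4 (chr1:68032186-69108059, minus strand), -0.80 ± 0.209 for Ctnnd2 and -0.84 ± 0.226 for Dpp6, and these also lost their call without the 6 libraries (adjusted p = 0.128, 0.109 and 0.125 by edgeR). Erbb4 in D2 turned to 0.53 when predicted background was subtracted from each library (adjusted p = 0.0995 by edgeR).

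Nuclear against whole cell libraries gave more calls in D1 than in D2. Nuclear D1 had 32 members higher and 1 lower than whole cell D1, beside 18.7% of all genes called, with a median log2 fold change of 0.91 against -0.32 over all genes. Nuclear D2 had 7 higher and 5 lower than whole cell D2, beside 19.9% of all genes called, with a median of -0.16 against 0.15 over all genes, and there were 7 calls in D2 without nuclear D2 replicate 1 or 5. Both comparisons depend on the scale: with total counts alone, nuclear D1 had 1 member higher and 12 lower (median -0.20 against -1.44) and nuclear D2 had 7 higher and 0 lower. The shares of all genes called on that scale are not given here. The D1 members lay 1.22 to 1.24 above the median of all genes on the log2 scale by TMM, by total counts and by total counts outside the 10 most counted genes of the libraries fitted. The summed level of 4 oligodendrocyte markers was 356 to 759 CPM in nuclear D1 against 90.0 to 180.1 in whole cell D1. It was 315 to 710.3 in nuclear D2 against 56.5 to 157 in whole cell D2, and neither pair overlapped. Astrocyte, oligodendrocyte precursor, excitatory neuron and GABA interneuron lists were also higher in nuclear D2, without overlap (astrocytes 194 to 219.6 against 32.6 to 150). The D1-MSN markers were lower in nuclear D1 (31.0 to 48.4 against 152 to 796), without overlap. So were the D2-MSN markers in nuclear D2 (298 to 599 against 836 to 4515). In every other case the ranges overlapped. The part of cell types was not tested. These comparisons and those with RiboTag use the same whole cell libraries.

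Ntm, or neurotrimin (chr9:28994750-29963141, minus strand), led the rise in nuclear D1. It had 196, 220.2 and 303 FPM in whole cell D1 and 404, 842 and 1012 in nuclear D1, without overlap, a log2 fold change of 1.79 ± 0.226 (adjusted p = 1.98e-07 by edgeR). Rbfox1 followed with 181, 378 and 1059.6 FPM against 778, 1371 and 2184 (1.62 ± 0.304), and Csmd1, a complement regulator (chr8:15892537-17535586, minus strand), with 319, 523 and 1077 against 879, 1714 and 2539.9 (1.57 ± 0.256). In both genes the highest whole cell library overlapped the nuclear range. At the other end Fhit was lower in nuclei (-0.60 ± 0.213, adjusted p = 0.0426 by edgeR, with 76.5, 144 and 215 FPM in nuclei), a call that was lost without nuclear D1 replicate 1, 2 or 5 (log2 fold changes from -0.51 to -0.47). The cadherin Cdh18 (0.51 ± 0.135) and the ADP-ribosyl hydrolase gene Macrod2 (0.61 ± 0.177) had the smallest called rises, and both turned negative with total counts (-0.60 and -0.51). The Macrod2 call was also lost without nuclear D1 replicate 2 (0.48).

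In D2, Nrg3, a neuregulin ligand (chr14:38368952-39473088, minus strand), was highest in nuclei relative to whole cells, with 138, 185 and 223 FPM in whole cell and a range of 270.0 to 551 FPM in nuclear libraries, without overlap (1.15 ± 0.243, adjusted p = 6.01e-04 by edgeR). Cdh13, or T-cadherin (chr8:118283733-119324921, plus strand), was higher by 0.78 ± 0.204 and Sox5 by 0.68 ± 0.234 on the log2 scale. The Sox5 call was lost in 5 of 5 fits that left out a nuclear D2 library (adjusted p from 0.0545 to 0.0630 by edgeR). Dlg2, the postsynaptic scaffold PSD-93 (chr7:90476672-92449247, plus strand), was lower in nuclear D2 (-0.96 ± 0.312), as were Nrxn3 (-0.91 ± 0.317) and Cntnap2, or Caspr2, which clusters potassium channels (chr6:45059357-47304213, plus strand; -0.80 ± 0.243). The Dlg2 call was lost without nuclear D2 replicate 1 or 5 (-0.94 and -0.81), that of Nrxn3 without replicate 1, 5 or 7 (-0.88, -0.76 and -0.91) and that of Cntnap2 without replicate 5 (-0.72), and all 3 were lost with total counts.

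Set directly against RiboTag, nuclear D1 libraries were higher for 43 of the 43 genes (0 lower, beside 79.3% of all genes called) and nuclear D2 libraries for 39 (0 lower, beside 86.2%). Over all genes, 18047 were higher and 6032 lower in D1, and 18313 higher and 7870 lower in D2. The members' median log2 difference was 2.38 in D1, against 2.10 over all genes, and 1.46 in D2, against 2.19 over all genes. Without the 6 RiboTag libraries the counts of members were 43 and 29, and the shares of all genes called are not given here. Fhit differed most in D1 (4.32) and D2 (5.03), and the least separated were Ptprn2 in D1 (1.00) and Dpp6 in D2 (0.14, not called).

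The long genes could be compared with relatives of other length. For 53 genes of the same families, most of them shorter, a median log2 fold change of -0.08 was found between RiboTag and whole cell D1, with 20 higher and 19 lower, against the members' 0 higher and 40 lower. Without the 6 RiboTag libraries, 20 relatives were higher and 16 lower, with a median of 0.21, against the members' 0 and 30. Nlgn2 (3.20), Cntnap1 (2.84), Dlg4 (2.81) and Ptprn (2.77) were the 4 relatives furthest above 0, with spans of 14.7, 20.2, 30.6 and 17.5 kb. The median of protein-coding genes other than the 43 was -1.12 under 10 kb, -0.67 from 10 to 100 kb, -1.10 from 100 to 500 kb and -1.58 for the 187 genes of 500 kb and over. Between nuclear and whole cell D1 the same classes had medians of -0.50, -0.26, 0.10 and 0.46, and 31 of the 53 relatives were higher and 2 lower.

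As a measure of intronic reads, counts were read from 93 intron intervals of at least 1 kb inside 16 of the long genes. Each lay at least 500 bases from any exon of its host or from another gene. Such reads can come from unspliced RNA or from background, which spread evenly would give a ratio near 1. The ratio was not computed after background subtraction, so it does not separate these sources. The deposited table counts these intervals as genes of their own (provisional annotations), and this measure was chosen after the counts had been seen. The ratio of count density inside the intervals to that over the whole gene, as the median in each library over those of the 16 genes with an expected count of at least 1 in their intervals, was 1.17 ± 0.137 in whole cell D1, 1.09 ± 0.283 in whole cell D2, 1.47 ± 0.173 in nuclear D1 and 1.20 ± 0.0953 in nuclear D2, against 0.522 ± 0.157 and 0.472 ± 0.160 in RiboTag D1 and D2 labelled male and 0.548 ± 0.102 and 0.588 ± 0.15 in those labelled female. The lowest whole cell D2 library (0.597) lay within the RiboTag range of 0.283 to 0.757, and the others lay above it. All 16 genes entered this median in whole cell and nuclear libraries except nuclear D1 replicate 5, with 12 genes, and 11 to 13 entered it in RiboTag libraries. Over the 11 genes that entered it in every library, the ratio was 1.25 ± 0.127 and 1.35 ± 0.169 in whole cell D1 and D2, 1.52 ± 0.187 and 1.28 ± 0.0655 in nuclear D1 and D2, 0.542 ± 0.154 and 0.522 ± 0.192 in RiboTag D1 and D2 labelled male and 0.574 ± 0.104 and 0.688 ± 0.135 in those labelled female, and the highest RiboTag library (0.844) lay below the lowest whole cell library (1.07). Without the 6 RiboTag libraries it was 0.456 ± 0.0358 in D1 (n = 2) and 0.489 ± 0.216 in D2 (n = 4) labelled male. In Auts2, with 17 intervals, the ratio over the D1 libraries of each method reached 1.27 for whole cells, 1.35 for nuclei and 0.401 for RiboTag, and in Cntnap2, with 19, it was 1.74, 1.97 and 0.695. Sox5, with a single interval, went the other way, at 0.523, 3.05 and 4.41.

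**Figure D3:**
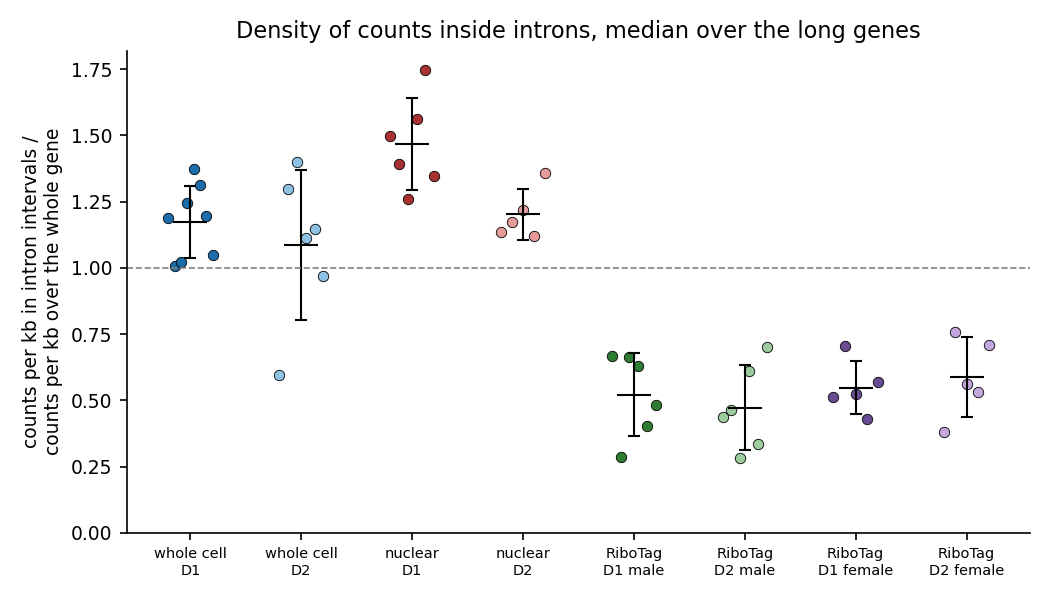
Count density in intron intervals divided by the density over the whole gene, as the median over those of 16 long genes with an expected count of at least 1 in each library (points; 16 genes in whole cell and nuclear libraries, 12 in nuclear D1 replicate 5, 11 to 13 in RiboTag libraries), with the mean ± SD of each group (black bars) and a dashed line at 1. All 11 nuclear libraries lie above 1, and all 22 RiboTag libraries lie below 1.

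Background was measured as the count density over 1703 olfactory and vomeronasal receptor genes (13095.9 kb in all), which neurons of the NAc should not express, and multiplied by each gene's span. It predicted 36.0% ± 18.8 of the 43 genes' counts in whole cell D1 (range 11.2 to 67.6%), 24.0% ± 12.4 in whole cell D2 (7.12 to 38.7%), 8.81% ± 8.58 in nuclear D1 (1.16 to 19.9%) and 39.5% ± 12.0 in nuclear D2 (29.5 to 58.6%). In the RiboTag groups the means lay between 1.12% and 1.31%. The nuclear D1 and D2 ranges did not overlap. For 8 of the genes in whole cell D1, 6 in whole cell D2, 1 in nuclear D1 and 11 in nuclear D2 the prediction reached at least 50% of the count. Pard3b led in 3 of these groups (72.0%, 57.4% and 76.1% in whole cell D1, nuclear D1 and nuclear D2), and Erbb4 in whole cell D2 (72.9%). Values after subtraction of this background are given beside only some of the results, and not for the RiboTag differences of Fhit and Pard3b. The part of background in the differences between groups was not tested further.

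Because strand was ignored and a fragment in several genes was counted for each, 7 of the long genes share counts with a protein-coding gene that overlaps them, inside the span in 6 and partly in Galntl6. Lrrtm3, a synaptic adhesion gene on the opposite strand inside Ctnna3 (alpha-T-catenin, chr10:63430098-65003667, plus strand), had 34.8% ± 14.5 of its host's count in whole cell D1, 46.4% ± 17.0 in whole cell D2, 67.0% ± 16.8 in nuclear D1, 28.0% ± 7.16 in nuclear D2 and 86.0% ± 2.17 in RiboTag D1 labelled male (84.0 and 90.0% in the 2 libraries left without those that went against their label). With the overlapping genes' counts taken off, the log2 fold change of Ctnna3 between RiboTag and whole cell D1 went from -1.62 to -4.35 ± 0.259, that of Immp2l, a mitochondrial peptidase gene that holds Lrrn3, from -1.32 to -3.97 ± 0.185, and that of Macrod2, which holds Flrt3, from -1.91 to -2.26 ± 0.196. In the nuclear comparisons below, the same step turned Ctnna3 from -0.35 (not called) to 0.88 ± 0.267 between D2 and D1 (adjusted p = 0.0298 by edgeR), and between nuclear and whole cell D1 from 0.30 (not called) to -0.73 ± 0.216.

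**Figure D4:**
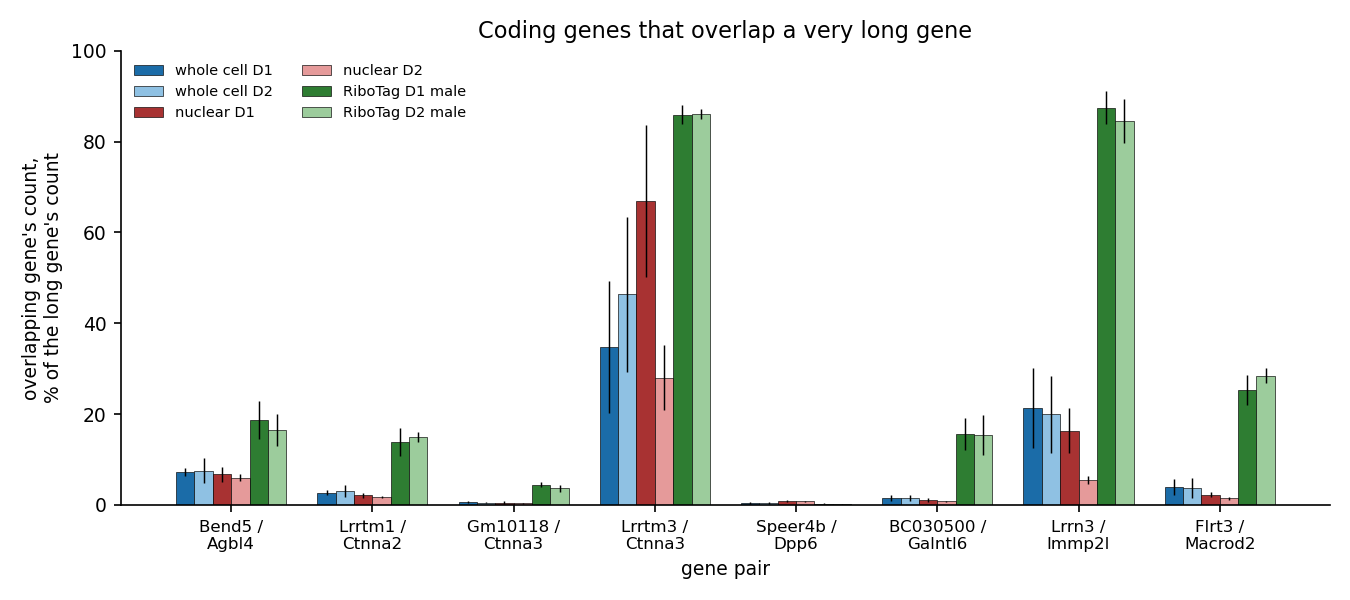
Count of a protein-coding gene that overlaps a long gene (named second), as a percent of the long gene's count, by group (bars, mean over libraries; error bars, SD). Lrrtm3 in Ctnna3 rises from 28.0% in nuclear D2 to 86.0% in RiboTag D1, and Lrrn3 in Immp2l is also highest in the RiboTag groups.

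The study's main contrast set D2-MSNs against D1-MSNs, separately for each method. Nuclear D2 libraries had 1 member higher (Fhit) and 30 lower than nuclear D1, beside 26% of all 31033 genes called, with a median of -0.90 on the log2 scale against 0.26 over all genes. Lower were 4 of 4 synapse organisers, 4 of 4 ligands and receptors, 2 of 2 CUB and sushi domain genes, 6 of 7 immunoglobulin-domain genes, 4 of 5 scaffolds and adaptors, 2 of 3 phosphatases, 2 of 3 channel partners, 2 of 3 regulators, 3 of 6 cadherins and catenins and 1 of 6 enzymes and others, beside 6350 of all 31033 genes. Differences between these groups of genes were not tested. These directions rest on the scale: with total counts 6 members were higher and 0 lower (median 0.33 against 1.45), and with total counts outside the 10 most counted genes of the nuclear libraries 6 were higher and 6 lower (-0.24 against 0.84). The shares of all genes called on these scales are not given here. The members stayed below the median of all genes by 1.17 with TMM, 1.12 with total counts and 1.08 with the third scale, but by only 0.05 once the study's FPKM filter was added, which left 27 members to test and called 0.

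The 4 largest nuclear differences belonged to Dlg2, Nlgn1, Fgf14 and Rbfox1. Dlg2 had 1823, 3144 and 5164 FPM in D1 (lowest, median, highest) and 1026, 1348, 1230.3, 612 and 1100.1 FPM in the 5 D2 libraries, a log2 fold change of -1.60 ± 0.327 (adjusted p = 0.00595 by edgeR). Nlgn1 had 1099, 1815 and 3017 FPM in D1 and 649, 752, 769.6, 349.7 and 591 in D2 (-1.58 ± 0.313, adjusted p = 0.00563 by edgeR). No D2 library reached the lowest D1 library in either gene. Fgf14 had 979, 1731 and 2922 FPM in D1 and 604, 807, 785, 313 and 555 in D2 (-1.56 ± 0.337), and Rbfox1 1282, 2423 and 3928 in D1 and 745, 1153, 1201, 457 and 949.8 in D2 (-1.45 ± 0.351), again without overlap. With total counts these differences were -0.28, -0.28, -0.26 and -0.12, and none was called. Fhit ran the other way, with 143, 243 and 354 FPM in D1 and 470.4, 389.7, 399.7, 452 and 392 in D2, without overlap (0.78 ± 0.257, adjusted p = 0.0409 by edgeR), and the background-rich Pard3b had a log2 fold change of 1.08 ± 0.396 that was not called.

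Several measures moved with the nuclear cell type. Predicted background was higher in D2 and the share of the 10 most counted genes higher in D1, as given above. The summed level of 3 D1-MSN markers was 31.0 to 48.4 CPM in D1 (median 32.4) and 21.6 to 31.0 in D2 (median 25.7), whereas in whole cells it was 152 to 796 and 9.09 to 29.4. That of 3 D2-MSN markers was 199 to 571 in nuclear D1 (median 265) and 298 to 599 in nuclear D2 (median 478), with overlap. The summed level of 5 astrocyte markers was 95.3 to 263 CPM in D1 and 194 to 219.6 in D2, that of 4 microglial markers 29.5 to 134 and 143 to 191, that of 2 endothelial markers 5.29 to 72.2 and 82.9 to 139, that of 2 oligodendrocyte precursor markers 11.8 to 52.6 and 58.6 to 76.8, and that of 2 cholinergic interneuron markers 4.78 to 26.0 and 38.6 to 63.9. The 4 oligodendrocyte markers overlapped (356 to 759 and 315 to 710.3), as did the 5 MSN markers (765 to 2808 and 807 to 1950.5), and no marker was at 0 in all libraries of a group. These marker levels are scaled to library totals, unlike the TMM scale of the calls. The 10 most counted genes took 19.4 to 66.1% of nuclear D1 and 4.17 to 12.9% of nuclear D2 totals. That lowers the D1 levels more than the D2 levels. With predicted background subtracted in each library, 3 members were higher and 18 lower. The part of the other cell types was not tested, and that of the most counted genes only through the scales given above. Within lane 4 (3 D1 and 2 D2 libraries) the members' median was -1.04 and within lane 5 (3 and 3) it was -0.78, with 0 of all genes called by edgeR in either lane. At an unadjusted p under 0.05 there were 13 members in lane 4 and 30 in lane 5, and 36 and 37 members had a value below 0. Leaving out each nuclear library in turn gave between 21 (without D2 replicate 5) and 36 calls (without D1 replicate 3).

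Whole cell D2 and D1 libraries gave 0 called members, beside 0.103% of all 33825 genes, and 14 members had an unadjusted p under 0.05 in edgeR. Erbb4 came closest. It had 421, 493 and 756 FPM in D1 and 221, 281 and 342 in D2, without overlap, a log2 fold change of -0.95 ± 0.198 (adjusted p = 0.0697 by edgeR). DESeq2 called it (-0.94, adjusted p = 4.37e-04) and no other member, as did edgeR with background subtracted (-1.96, adjusted p = 0.0136) or with total counts (-1.33, adjusted p = 0.0247). The largest positive value was 0.75 for Nrxn3, and the members' median was 0.28 against -0.05 over all genes.

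The difference between the nuclear and the whole cell contrast was tested as an interaction. It called 1 member higher (Fhit, 0.92 ± 0.317) and 31 lower, beside 21.5% of all genes, with a median of -1.14 against 0.35 over all genes. Of the 53 relatives, most of them shorter, 2 were called higher and 32 lower, with a median of -0.91. Among other coding genes of 500 kb and over 16.0% were higher and 42.8% lower, with a median of -0.47. Fgf14 (-2.1 ± 0.470, adjusted p = 0.00182 by edgeR), Dlg2 (-2.08 ± 0.416), Rbfox1 (-2.04 ± 0.463) and Nlgn1 (-1.62 ± 0.411) all differed, and Nrxn3 did so by -2.02. With total counts the interaction called 12 members higher and 0 lower, and the share of all genes called on that scale is not given here. The nuclear and whole cell contrasts share no libraries. The interaction contains the nuclear contrast from which Fgf14, Dlg2, Rbfox1 and Nlgn1 were picked as the largest. Their values here are therefore not separate support.

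**Figure D5:**
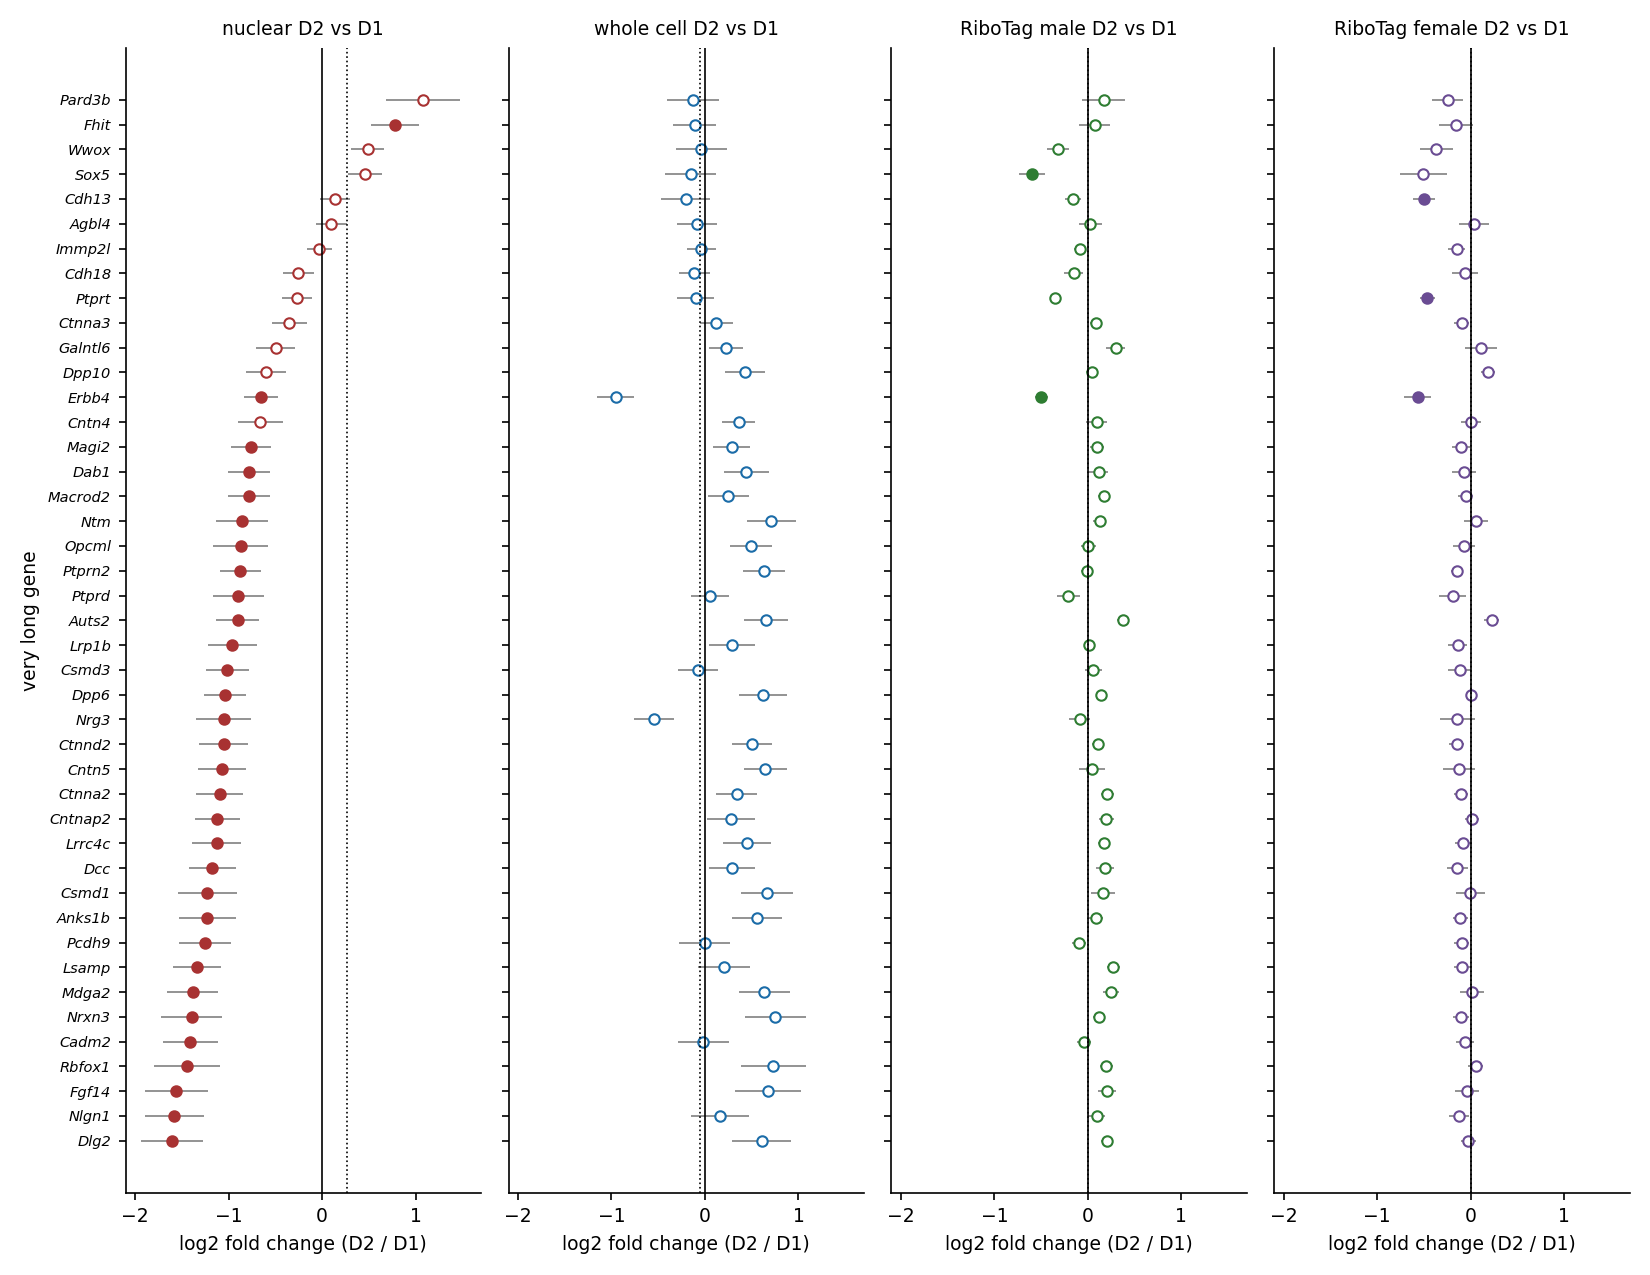
Log2 fold change of D2 over D1 for each of the 43 genes (rows) in nuclear, whole cell and RiboTag libraries (panels), scaled by TMM. Filled points are called and open points are not, bars are the SE, the solid line marks 0 and the dotted line the median of all genes tested. Nuclear points lie mostly left of 0, from -1.60 (Dlg2) to 1.08 (Pard3b), a side that turns with total counts, where the members' median is 0.33.

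In RiboTag libraries labelled male, 0 members were higher and 2 lower in D2 than in D1, beside 4.49% of all genes called, and 4 were called without D2 replicate 3. The summed levels of 3 GABA interneuron markers (10.5 to 14.4 CPM in D1, 4.19 to 8.54 in D2), 3 excitatory neuron markers (15.6 to 35.8 and 1.08 to 9.22) and 2 cholinergic interneuron markers (0.480 to 0.866 and 3.23 to 4.37) did not overlap between the cell types, and their part was not tested. Erbb4 had 17.7, 22.1 and 25.1 FPM in D1 and 13.6, 15.5 and 17.2 in D2, without overlap (-0.50 ± 0.0709, adjusted p = 3.04e-05 by edgeR). Sox5 had 2.5, 3.48 and 4.17 FPM in D1 and 1.52, 2.53 and 2.66 in D2, with overlap (-0.60 ± 0.140, adjusted p = 0.00708 by edgeR). Ptprt, a receptor phosphatase of synapses (chr2:161521990-162661147, minus strand), had 28.2, 29.2 and 29.4 FPM in D1 and 20.7, 22.7 and 24.3 in D2, a difference (-0.36 ± 0.0469, adjusted p = 1.04e-05 by edgeR) below the fold threshold, and Auts2, a transcriptional regulator (chr5:131437333-132543344, minus strand), had 36.5, 42.5 and 52.7 in D1 and 52.1, 57.4 and 60.3 in D2 (0.38 ± 0.0646), just below that threshold.

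Without the 6 libraries that went against their label, 2 D1 and 4 D2 libraries remained, 3.95% of all genes were called, and 7 members were higher and 0 lower. The 7 were Csmd1 (0.52), Fgf14 (0.49), Auts2 (0.49 ± 0.0876), Mdga2 (0.44), Lsamp (0.42), Dab1 (0.41) and Dcc (0.40). Erbb4 (-0.33 ± 0.101, adjusted p = 0.0754 by edgeR) and Sox5 (-0.60 ± 0.195, adjusted p = 0.0914 by edgeR) were no longer called. The counts of called members in this group therefore depend on which libraries are kept.

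RiboTag libraries labelled female had 0 members higher and 3 lower in D2, beside 2.54% of all genes called. Of the same marker lists, the excitatory neuron list had 12.0 to 28.8 CPM in D1 and 1.61 to 6.01 in D2, the GABA interneuron list 10.02 to 18.2 and 2.72 to 10.01, and the cholinergic list 0.572 to 1.09 and 1.88 to 6.19, again without overlap and with their part not tested. Erbb4 had 25.6, 34.7, 20.2, 30.6 and 32.3 FPM in D1 and 16.4, 24.3, 17.5, 15.1 and 23.6 in D2, with the lowest D1 library inside the D2 range (-0.57 ± 0.141, adjusted p = 0.0294 by edgeR). Ptprt had 30.4, 37.4, 33.9, 28.8 and 34.3 FPM in D1 and 20.8, 23.8, 23.5, 23.6 and 27.8 in D2, without overlap (-0.46 ± 0.0785, adjusted p = 0.00145 by edgeR). Cdh13 had 12.8, 18.7, 17.4, 14.2 and 20.3 FPM in D1 and 10.8, 13.5, 11.7, 9.39 and 13.8 in D2, with overlap (-0.50 ± 0.120, adjusted p = 0.0244 by edgeR). The call of Cdh13 was lost without D1 replicate 2 or 6 or D2 replicate 1, 3 or 5, that of Erbb4 without any of these or without D1 replicate 5 and with DESeq2 (adjusted p = 0.0721), and at the least 1 member was called in those fits.

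Erbb4 had negative log2 fold changes of D2 over D1 in all 4 contrasts with TMM, from -0.95 to -0.50, but its nuclear value turned positive with total counts (0.53). In nuclei it had 298, 459 and 511 FPM in D1 and 317, 299, 296, 253 and 229 in D2, with overlap (-0.65 ± 0.181, adjusted p = 0.0212 by edgeR), and DESeq2 did not call it there (-0.34, adjusted p = 0.0927). Over the 53 relatives, nuclear D2 against D1 called 1 higher and 34 lower, whole cell 0 and 0, RiboTag labelled male 1 and 3 and labelled female 1 and 2. The 187 other protein-coding genes of 500 kb and over had a nuclear median of -0.43 (12.3% higher and 44.4% lower), against 0.34 for those under 10 kb.

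Libraries labelled female and male were compared within RiboTag, where 6 male-labelled libraries went against their label. In D1, 0 members and 0% of all 11146 genes were called. All 43 log2 differences were above 0, from 0.02 to 0.58 with a median of 0.23 against 0.00 over all genes, and 23 had an unadjusted p under 0.05. The shift was not particular to the 43. Other coding genes of 500 kb and over had a median of 0.19, those from 100 to 500 kb 0.07 and those under 10 kb -0.05. The relatives that were tested had a median of 0.04. DESeq2 also called 0 members, but with total counts 22 members were called higher and 0 lower (median 0.42 against 0.19 over all genes). The share of all genes called with total counts is not given here, and the 0% above is for TMM. Without the 4 D1 libraries in question the median was 0.31 with 0 called. In D2, 0 members were called beside 0.0628% of all genes, 31 differences were above 0 with a median of 0.06, and 2 had an unadjusted p under 0.05.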

How the data were processed

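The 47 libraries analysed came from 49 columns. In whole cell D2, 2 columns differed by sampling noise only (chi-square over degrees of freedom 1.04, against 19.2 to 387 between other libraries) and were counted as 1 library. In whole cell D1, a column named as a further run of replicate 1 was added to it, although it differed by more (6.26, against 5.53 to 130 between other libraries). The study treats both columns as samples of their own, so whole cell D1 may hold 9 libraries, and this was tried as an alternative (whole cell Erbb4 adjusted p = 0.0572 by edgeR, 0.0709 without the column). Whole cell D2 samples titled replicate 7 and 8 were not analysed here. Replicate numbers are those of the table's columns, which in nuclear D2 and female-labelled RiboTag skip numbers and do not follow the sample titles.

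The authors deposited raw counts per gene, made per the study's methods from paired, ribosomal RNA-depleted stranded libraries with HISAT2 (2.0.5) on GRCm38 and featureCounts over whole gene bodies, ignoring strand, counting a fragment for each gene it overlapped and leaving out multi-mapped fragments. Intronic reads therefore count, and long genes gather counts from unspliced RNA, background and genes inside them. Of the gene IDs, 99.7% matched the GENCODE annotation from which spans were taken.

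The 43 genes, role groups and 53 relatives were chosen with earlier results of these data known. Genes with over 1 FPM in at least 2 libraries were tested with edgeR 4.0.16 (quasi-likelihood test, TMM, R 4.3.3) and p-values adjusted by Benjamini-Hochberg over all genes tested. Calls needed an adjusted p of at most 0.05 and a log2 fold change over 0.38. Whole cell, nuclear and male-labelled RiboTag libraries were compared in 1 fit, and D2 with D1 also within each method. The D2 against D1 fits within each method and the background rate were tested on simulated data, and the other steps were not. Per-library values were fixed for the 4 called genes that changed most between D2 and D1, the 3 largest and 3 smallest called differences between methods, and the 3 highest and lowest whole cell levels. Values of Pard3b, Erbb4, Ptprt, Auts2, Ctnna3 and Immp2l beyond this rule were chosen after they were seen.

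Alternatives were DESeq2 1.42.0, its size factors in edgeR, total counts, no low count filter, no fold threshold, the study's FPKM filter, background subtraction, lane (named in the study's supplementary tables), the replicate block, the repeat columns treated otherwise and each library left out. Chosen after seeing the data were total counts outside the 10 most counted genes, overlapping genes taken off, the 6 RiboTag libraries left out and the intron intervals. The 10 genes left out of the shares were picked over all libraries. For the refits they were picked again over the libraries of each fit.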

Additional observations from a re-analysis of the deposited data

Results flagged for a closer look

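Of 90 groups of values examined, 9 held a library apart from the others relative to their spread. For independent groups chance gives about 1 in 20. Some groups entered more than once and many share libraries, so this rate is only a rough guide. Whole cell D1 replicate 6 gave 5.15% of its counts to the 43 genes (the next library 4.10%), and stood apart in Rbfox1 (1059.6 FPM, next 561), Csmd1 (1077, next 659), Ctnnd2 (381, next 263) and Anks1b (787, next 487). RiboTag D1 replicate 1 labelled male gave 0.174% to the 43 genes (next 0.133%). Whole cell D2 replicate 5 stood apart in Nrxn3 (3083 FPM, next 1399) and Ctnnd2 (494, next 318), and nuclear D2 replicate 1 was low in Sox5 (213 FPM, next 219).

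For 32 of the 43 genes (1 higher, 31 lower) the D2 over D1 difference in nuclei differed from that in whole cells by the interaction term of edgeR's quasi-likelihood test. Of these, 5 are genes named for the nuclear contrast, which is itself part of the interaction term. The difference of the log2 fold changes was -2.08 for Dlg2, -1.62 for Nlgn1, -2.1 for Fgf14, -2.04 for Rbfox1 and 0.92 for Fhit. Of the 53 relatives, 2 were called higher and 32 lower by the same term. With total counts the called members of the interaction turned in direction, as given above. The part of lanes in these differences was not tested. The refits on other scales do not separate the part of background from that of the most counted genes.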

How the results depend on the processing

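Among 609 refits of 33 single-gene results, 606 kept their direction, and in 88 of these the call was lost. With total counts the calls turned for nuclear D2 against D1 (6), nuclear against whole cell D1 (13) and the difference of the nuclear and whole cell contrasts (12), and were 7 for nuclear against whole cell D2 and 22 for RiboTag female against male D1. These counts of members are not set beside the share of all genes called with total counts. Cdh18 (-0.60) and Macrod2 (-0.51) turned in nuclear against whole cell D1. Outside the 10 most counted genes, 12 members were called in nuclear D2 against D1. That contrast had 17 calls with the median background rate subtracted and 0 with the FPKM filter (27 members tested), within lane 4 and within lane 5. Whole cell D2 against D1 had 1 call (Erbb4) with background subtracted, DESeq2, total counts or total counts outside the 10 genes. RiboTag D2 against D1 labelled male turned to 7 calls without the 6 libraries and to 7 without the fold threshold, and female against male D1 had 1 without the low count filter. Background subtraction turned Erbb4 in RiboTag against whole cell D2 to 0.53. The cause was not tested. In RiboTag libraries the FPKM filter left no member to test.

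Leaving out each library gave 21 to 36 calls in nuclear D2 against D1, 27 to 33 in its difference from whole cells, 29 to 36 and 7 to 13 in nuclear against whole cell D1 and D2 (9, turned in balance, without nuclear D2 replicate 2), 43 to 43 and 38 to 40 in nuclear against RiboTag D1 and D2, 2 to 4 and 1 to 3 in RiboTag labelled male and female, and 0 to 0 in whole cells.

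Replicate numbers did not pair D1 with D2 libraries: the correlation of deviations passed 0.1 in 1 of 4 nuclear, 2 of 6 whole cell, 1 of 6 male-labelled and 1 of 4 female-labelled pairs. With the replicate block, nuclear D2 against D1 had 0 calls (35 members at an unadjusted p under 0.05 in edgeR) and nuclear against whole cell D2 had 6.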
